A study of Mus musculus with 70 samples.

Results

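The enzymes of the pentose phosphate pathway and the neighbouring enzymes that make NADPH in the cytosol were followed in mouse lung across 13 chemicals. The members were chosen by gene symbol: G6pdx, Pgd, Taldo1, Tkt, Me1 and Idh1. A probe set with 1 symbol represented 5 of these 6 genes, and G6pdx was not analysed here. Where a gene had several probe sets, the one with the highest mean over the 70 arrays was used. The members were thus 5 of 18193 named genes, and all 5 lay among the 14593 genes whose signal passed a filter on low values.

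The pentose phosphate pathway branches off from glycolysis at glucose 6-phosphate. Its oxidative branch reduces NADP to NADPH, and its non-oxidative branch exchanges sugar phosphates between ribose 5-phosphate and the intermediates of glycolysis. Cytosolic malic enzyme and cytosolic isocitrate dehydrogenase make NADPH from malate and from isocitrate. In lung, NADPH serves the glutathione and thioredoxin reductases, quinone and carbonyl reductases, cytochrome P450 reductase and the synthesis of surfactant fatty acids, and several of the genes that supply it are known targets of the transcription factor NRF2.

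All animals were female B6C3F1 mice, aged 18 weeks, with 1 array of right lung lobe RNA per mouse after 13 weeks of dosing. Diets, given on 7 days a week, held 2000 ppm 1,5-naphthalenediamine, 2000 ppm N-(1-naphthyl)ethylenediamine dihydrochloride, 8187 ppm pentachloronitrobenzene, 1250 ppm 2,2-bis(bromomethyl)-1,3-propanediol, 10000 ppm 4-nitroanthranilic acid, 16000 ppm malathion or 200 ppm diazinon. By gavage at 5 ml/kg on 5 days a week, mice received 2,3-benzofuran (240 mg/kg), coumarin (200 mg/kg), 1,2-dibromoethane (62 mg/kg) or benzene (100 mg/kg) in corn oil, or N-methylolacrylamide (50 mg/kg) or 2-chloromethylpyridine hydrochloride (250 mg/kg) in water. The labels call 7 chemicals positive for lung tumours, namely 1,5-naphthalenediamine, 2,3-benzofuran, 2,2-bis(bromomethyl)-1,3-propanediol, N-methylolacrylamide, 1,2-dibromoethane, coumarin and benzene, and the other 6 negative. The first number of an animal's identifier divides the study into set 1 (both naphthalenes, pentachloronitrobenzene, 2,3-benzofuran, and their feed and corn oil controls, 3 mice a group) and set 2 (the rest, 4 mice a group, with 8 corn oil, 4 feed and 4 water controls). Each chemical was compared with the controls of its own vehicle and set, so the chemicals that share a vehicle and set also share their controls.

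The defining genes of lung were among the brightest on every array: Sftpc of alveolar type II cells averaged 14.37, Scgb1a1 of club cells 14.23 and Ager of alveolar type I cells 14.10 on the log2 scale. Markers of other tissue varied between lungs, with Adipoq of fat cells between 3.10 and 10.02 and Alb of hepatocytes between 5.02 and 12.28 over the arrays. The mean level of 8 hepatocyte markers was 4.69 to 4.79 in the groups of set 1 and 5.51 to 7.64 in those of set 2. One lung of the 1,2-dibromoethane group (2-56) had a difference of 0.989 between the 3′ and 5′ probe sets of the Actb and Gapdh controls, against group means of 0.116 to 0.386. The lungs are bulk tissue, in which a change in the number of cells of a type and a change in the RNA of each cell cannot be told apart. A log2 value compares one probe set across lungs, so the levels of different genes are not set against each other.

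Each member has a promoter in the RefSeq annotation of assembly GRCm38.p6, and the sequences are shown because the members moved together in some comparisons. The last 100 bases before the most upstream annotated start follow, 5′ to 3′ on the gene's strand, for the pair of pathway genes that rose together with 1,5-naphthalenediamine and 2,3-benzofuran. Capitals mark CCAAT on either strand. The windows are chr4:149166706-149166805 (minus strand) for Pgd and chr7:141392060-141392159 (plus strand) for Taldo1.
Pgd: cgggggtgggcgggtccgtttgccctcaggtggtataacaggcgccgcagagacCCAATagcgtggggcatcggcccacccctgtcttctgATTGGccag
Taldo1: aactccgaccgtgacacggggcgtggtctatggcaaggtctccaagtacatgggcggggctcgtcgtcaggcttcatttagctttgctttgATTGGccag
Both windows ended in the same 11 bases, tgattggccag, which hold the reverse complement of CCAAT at bases -9 to -5 before the start. Of 32851 promoter windows, 24 (0.0731%) had that motif at these bases, and the shared end was found in 2 windows, those of Pgd and Taldo1. The motif, its place and the shared end were taken from these windows on reading them. Their counts over all windows are thus a description and not a test. The next stretch, at chr9:86695905-86695934 (minus strand), is 30 bases around the start of Me1, shown because it holds the core of the antioxidant response element, TGACNNNGC, in capitals from base -6 to base 3.
Me1: ggccgatgccgccgTGACTCAGCgcttctc
Over windows of 300 bases (both strands), TGACNNNGC was present in the promoter of 1 of 5 members and in 12.4% of all windows. CCAAT was present in 3 of 5 members (Pgd, Taldo1 and Idh1) and in 37.4% of windows, and the GC box GGGCGG in 5 of 5 members and in 35.7% of windows. These searches overlap only where GC boxes share a base, as in Tkt. A match describes the letters and is not a measured binding site.

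In lungs of mice fed 1,5-naphthalenediamine, an aromatic diamine, 3 of the 5 members rose (limma, adjusted p under 0.05), in a comparison that called 1.11% of all genes and 0.959% as higher. Pgd, the second dehydrogenase of the oxidative branch, stood at 10.46, 10.47 and 10.56 in the treated lungs and at 9.60, 9.65 and 9.72 in the feed controls. The treated lungs had an SD of 0.06 and lay far above every control. The difference was 0.84 ± 0.11 (SE), a 1.79-fold rise (95% interval of the log2 difference 0.62 to 1.06, limma adjusted p = 2.15e-07, n = 3 against 3).

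Taldo1, the transaldolase of the non-oxidative branch, read 10.97, 10.99 and 11.00 with 1,5-naphthalenediamine against 10.26, 10.44 and 10.44 in controls. The groups did not overlap, and the rise was 0.60 ± 0.11, or 1.52-fold (limma adjusted p = 0.000265). Tkt, the transketolase of the same branch, read 11.44, 11.53 and 11.55 against 11.22, 11.33 and 11.39. Its treated lungs also lay above all 3 controls, but by a margin close to the spread, and the difference of 0.19 ± 0.09 did not pass (limma adjusted p = 0.544). Thus within one branch the transaldolase passed and the transketolase did not, and the difference between these genes was not tested.

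Outside the pathway, Me1, the cytosolic malic enzyme, read 9.52, 9.59 and 9.84 with 1,5-naphthalenediamine against 8.81, 8.95 and 9.21. Treated and control lungs were separate, and Me1 rose by 0.66 ± 0.16, or 1.58-fold (limma adjusted p = 0.0129). That call did not hold without control 1-27, control 1-29 or treated mouse 1-4 (adjusted p = 0.0692, 0.192 and 0.18 with limma). The 3′ minus 5′ difference was also lower in every treated lung (0.093 to 0.212) than in every feed control (0.278 to 0.364). Within groups Me1 correlated with that difference at -0.45, and the other members at -0.20 to 0.27. In these lungs the chemical and the 3′ minus 5′ difference went together. Idh1, the cytosolic NADP-dependent isocitrate dehydrogenase, read 10.70, 10.73 and 10.80 against 10.07, 10.24 and 10.33. The groups again did not overlap, but the difference of 0.53 ± 0.15 missed the threshold (limma adjusted p = 0.072). All 5 members were thus higher in every treated lung than in every control, a separation that 9.07% of all genes showed. Their median difference was 0.60, while the median over all genes was -0.02.

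**Figure D1:**
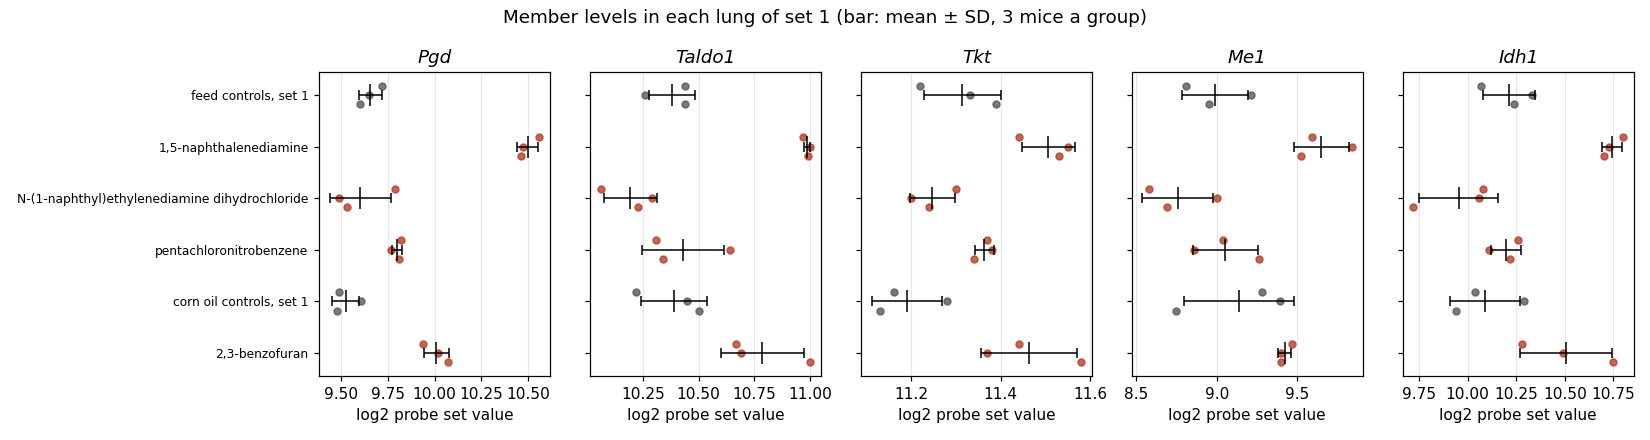
The log2 probe set value of each member in every lung of set 1, with points for mice (grey for controls, red for treated) and a bar for the mean and SD of 3 mice. The 1,5-naphthalenediamine lungs lie to the right of the feed controls in all 5 panels, with Pgd at 10.46 to 10.56 against 9.60 to 9.72.

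The study fed a second naphthalene with an amino group, N-(1-naphthyl)ethylenediamine dihydrochloride, at the same 2000 ppm. This single pair of compounds could thus be compared at the same concentration in feed and the same time. Feed intake and molar dose were not compared. The first carries an amino group on each ring, and the second a single amino group on the naphthalene that is extended by an aminoethyl chain. With N-(1-naphthyl)ethylenediamine dihydrochloride, 0 of 5 members passed against the feed controls with limma, 0 had an unadjusted p under 0.05, and the comparison called 0.00685% of genes. All 5 members were lower on average than in controls, by differences between -0.05 (Pgd) and -0.26 (Idh1), and every one of these groups overlapped its controls. The 95% interval of the Pgd difference ran from -0.27 to 0.17.

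Set directly against each other, the lungs of the 2 naphthalene groups differed in 4 of the 5 members, in a comparison that called 1.67% of genes, 1.49% as higher with 1,5-naphthalenediamine. Pgd read 9.49, 9.53 and 9.79 with N-(1-naphthyl)ethylenediamine dihydrochloride, and was 0.89 ± 0.11 higher with 1,5-naphthalenediamine (interval 0.67 to 1.11, limma adjusted p = 4.64e-08). Taldo1 read 10.06, 10.23 and 10.29, the lowest group mean of the study (10.19), and was 0.79 ± 0.11 higher with 1,5-naphthalenediamine (limma adjusted p = 6.79e-07). Both genes were separated without overlap.

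Me1 read 8.58, 8.69 and 9.00 with N-(1-naphthyl)ethylenediamine dihydrochloride, and was 0.89 ± 0.16 higher with 1,5-naphthalenediamine (limma adjusted p = 0.000112). Idh1 read 9.72, 10.06 and 10.08, and was 0.79 ± 0.15 higher (limma adjusted p = 0.000487). For these genes part of the distance came from lower values in the second group, which lay below the feed controls on average. Tkt read 11.20, 11.24 and 11.30, and its difference of 0.26 ± 0.09 (interval 0.07 to 0.45) did not pass (limma adjusted p = 0.201), although the groups did not overlap. This was the 1 pair of chemicals compared directly, with p-values adjusted over all genes.

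Corn oil gavage with 2,3-benzofuran, a bicyclic oxygen heterocycle, raised 2 of 5 members, with 4.07% of all genes called and 3.55% called higher. Pgd read 9.94, 10.02 and 10.07 against 9.48, 9.49 and 9.61 in the corn oil controls of set 1. The rise was 0.48 ± 0.11 (1.39-fold, limma adjusted p = 0.00744) and the groups were far apart. Taldo1 read 10.67, 10.69 and 11.00 against 10.22, 10.45 and 10.50, a rise of 0.40 ± 0.11 (1.32-fold, limma adjusted p = 0.0246).

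In the Taldo1 values 1 treated lung (1-10, at 11.00) stood above the other two, and 1 control (1-25, at 10.22) below the rest. Tkt was 0.27 ± 0.09 higher and Me1 0.28 ± 0.16 higher without overlap, and Idh1 was 0.42 ± 0.15 higher with overlap. None of these passed (limma adjusted p = 0.0853, 0.375 and 0.106). For Me1 the separation was narrow, with the lowest treated lung at 9.40 and the highest control at 9.39. The share of all genes that separated without overlap was not counted in this comparison. Without treated lung 1-10 or control 1-22 neither call held, and without control 1-25 Taldo1 lost its call (limma adjusted p = 0.133). With the spread taken from these 6 arrays alone, neither gene passed (limma adjusted p = 0.407 for Pgd).

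Coumarin, a benzopyrone, raised 3 of 5 members, in a comparison that called 4.09% of genes, 2.91% as higher. Pgd read 10.10, 10.20, 10.23 and 10.46 against a lowest, median and highest value of 9.78, 9.90 and 10.00 in 8 controls. Every coumarin lung exceeded every control, and the rise was 0.34 ± 0.08 (1.27-fold, limma adjusted p = 0.00686). Tkt read 11.80, 11.83, 11.85 and 11.86 against 11.29, 11.46 and 11.76 (lowest, median and highest of 8 controls).

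The coumarin lungs were nearly identical in Tkt and stood just above the brightest control, a rise of 0.32 ± 0.07 (1.25-fold, limma adjusted p = 0.00276). Idh1 read 10.06, 10.12, 10.49 and 10.61 against 9.37, 9.94 and 10.24 in controls. Although 2 coumarin lungs lay inside the control range, it passed at 0.45 ± 0.11 (1.36-fold, limma adjusted p = 0.0114). Taldo1 (0.12 ± 0.08) and Me1 (0.23 ± 0.12) did not pass, with limma adjusted p = 0.502 and 0.323.

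Without coumarin mouse 2-80, which had the highest Pgd and Idh1 of its group, 1 member passed, and Pgd stood at 0.27 (limma adjusted p = 0.0734). Idh1 also lost its call without mouse 2-76 (limma adjusted p = 0.0593), and in the fit to these 12 arrays alone 0 members passed, with limma adjusted p = 0.0917 for Pgd.

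With 1,2-dibromoethane, an alkylating dihalide, 2 of 5 members rose, where 4.03% of all genes were called and 1.94% were called higher. Pgd read 10.23, 10.24, 10.49 and 10.53, all above the brightest of the 8 corn oil controls at 10.00. The rise was 0.47 ± 0.08 (1.39-fold, limma adjusted p = 0.000394). Idh1 read 10.15, 10.23, 10.40 and 10.45, of which the lower 2 fell inside the control range. It rose by 0.43 ± 0.11 (1.35-fold, limma adjusted p = 0.0204).

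In the same lungs Tkt was 0.20 ± 0.07 higher with overlap (limma adjusted p = 0.0877), Taldo1 differed by -0.01 ± 0.08 and Me1 by -0.15 ± 0.12. Taldo1 spread from 10.51 to 11.30 and Me1 from 8.51 to 9.40 within the group. Both lowest values came from lung 2-56, the one with the large 3′ minus 5′ difference, whose part in them was not tested. The Idh1 call did not hold without lung 2-56 or 2-58, or with the 3′ minus 5′ difference as a covariate (limma adjusted p = 0.0578, 0.0872 and 0.051), and the fit to these arrays alone gave limma adjusted p = 0.0827 for Pgd.

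Malathion, an organophosphate insecticide that the labels class as negative for lung tumours, raised 1 of 5 members, where 2.19% of genes were called and 1.03% were called higher. Pgd read 9.99, 10.49, 10.63 and 10.67 against 9.98, 9.98, 9.99 and 10.15 in feed controls. In this group 3 lungs lay well above all controls and 1 (2-33) lay among them, so the SD of the group was 0.32. The rise was 0.42 ± 0.10 (1.34-fold, limma adjusted p = 0.00908), and it lost its call without lung 2-38 or 2-39 (limma adjusted p = 0.0752 and 0.0907) and in the fit to these 8 arrays alone (limma adjusted p = 0.123).

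The other members did not pass with malathion: Taldo1 at 0.15 ± 0.10, Tkt at 0.17 ± 0.08, Me1 at -0.14 ± 0.14 and Idh1 at -0.11 ± 0.13. Diazinon, the other organophosphate, was fed at 200 ppm against 16000 ppm for malathion, so the values stand side by side only. With diazinon Pgd read 9.86, 9.93, 9.94 and 9.96, below all feed controls, a difference of -0.10 ± 0.10 that did not pass (limma adjusted p = 0.887). Idh1 read 9.97, 10.04, 10.04 and 10.16 with diazinon, also below all feed controls, and its difference of -0.24 ± 0.13 did not pass (limma adjusted p = 0.883, unadjusted p = 0.0738).

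In 8 comparisons no member passed with limma. Besides N-(1-naphthyl)ethylenediamine dihydrochloride, given above, 4 of these also had 0 members at an unadjusted p under 0.05: pentachloronitrobenzene (0.00685% of genes called), diazinon (0.00685%), 2,2-bis(bromomethyl)-1,3-propanediol (0%) and 4-nitroanthranilic acid (0%). Benzene called 0.0891% of genes, with all 5 members higher on average, by 0.11 to 0.18, and 1 of them, Pgd, at an unadjusted p of 0.0319 (adjusted p = 0.509 with limma). Over all genes 1382 of 14593 had an unadjusted p under 0.05 with benzene.

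Water gavage with 2-chloromethylpyridine hydrochloride called 0% of genes, and Idh1 was the 1 member with an unadjusted p under 0.05 (0.29 ± 0.13, limma adjusted p = 0.389). Such an unadjusted p was found for 1710 of 14593 genes in this comparison. N-methylolacrylamide called 17.9% of genes, the largest share of any chemical here, yet 0 of 5 members passed. Its Idh1 lungs read 9.95, 9.97, 9.98 and 10.17 against water controls at 9.31, 9.42, 9.93 and 10.01. The treated lungs clustered near the upper pair of controls, and the difference of 0.35 ± 0.13 missed the threshold (limma adjusted p = 0.0535). Without water control 2-127 or 2-129 it passed (limma adjusted p = 0.0307 and 0.0114). The other 4 members differed by -0.08 to 0.10 with N-methylolacrylamide.

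**Figure D2:**
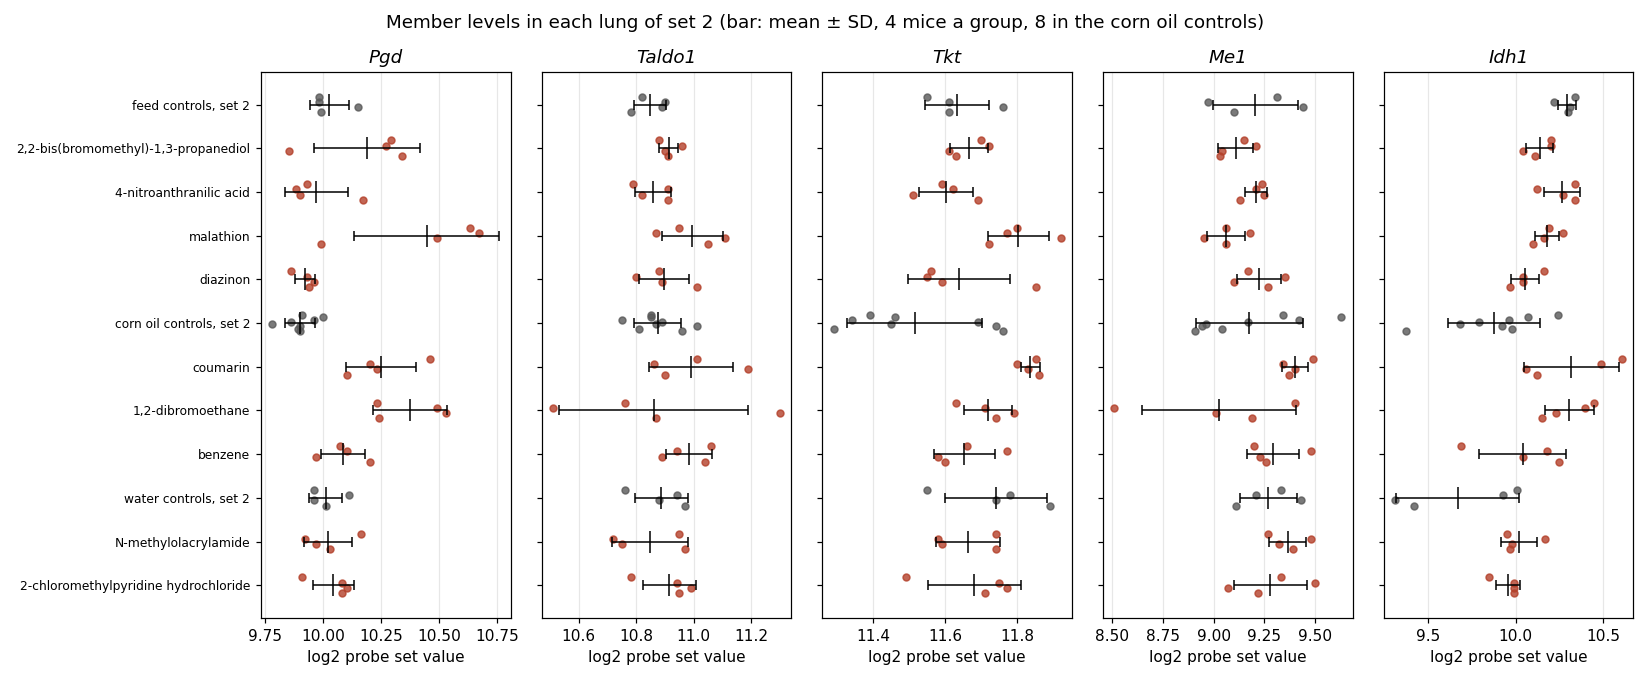
The log2 probe set value of each member in every lung of set 2, with points for mice (grey for controls, red for treated) and a bar for the mean and SD. Pgd shows coumarin and 1,2-dibromoethane to the right of all 8 corn oil controls and 1 of 4 malathion lungs among the feed controls. Me1 and Idh1 show a broad corn oil control group, and Idh1 also a broad water and a narrow feed control group.

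Over the 18 groups Pgd means ran from 9.53 in the corn oil controls of set 1 to 10.49 with 1,5-naphthalenediamine, Taldo1 from 10.19 to 10.99, Tkt from 11.19 to 11.83, Me1 from 8.76 to 9.65 and Idh1 from 9.67 in water controls to 10.74 with 1,5-naphthalenediamine. Within set 2 the highest Pgd means were those of malathion (10.45 ± 0.32, SD), 1,2-dibromoethane (10.37 ± 0.16) and coumarin (10.25 ± 0.15), neighbours whose ranges overlap. The highest Taldo1 means of set 2, with coumarin (10.99), malathion (10.99 ± 0.11) and benzene (10.98 ± 0.08), were not separable either.

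These ranges span sets whose controls differed. Pgd in the feed controls was 0.37 ± 0.10 higher in set 2 than in set 1 (limma adjusted p = 0.00369), Taldo1 0.47 ± 0.10 (limma adjusted p = 0.000301) and Tkt 0.32 ± 0.09 (limma adjusted p = 0.00359). Those were 3 of 5 members, where 41.5% of all genes were called. The corn oil controls differed between the sets in 3 of 5 members, the 3 named for feed, by 0.37, 0.49 and 0.32, where 55.5% of genes were called. Me1 and Idh1 did not pass in either comparison. Set and every laboratory step that went with it cannot be told apart.

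Idh1 differed between vehicles in set 2. Feed controls read 10.22, 10.30, 10.31 and 10.34, a tight group. Water controls, whose values are given with N-methylolacrylamide, were 0.63 ± 0.13 lower without overlap (limma adjusted p = 0.000318), where 33.7% of genes were called and Idh1 was the 1 member of 5. Corn oil controls were 0.42 ± 0.11 lower in Idh1 than feed controls (limma adjusted p = 0.0267), where 3.46% of genes were called and again 1 of 5 members. Between corn oil and water controls Tkt was the 1 member called (0.23 ± 0.07 lower in corn oil, limma adjusted p = 0.0186, with 22.9% of genes called), and in set 1 corn oil and feed controls differed in 0 of 5 members, with 0% of genes called and 0 members at an unadjusted p under 0.05 with limma.

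**Figure D3:**
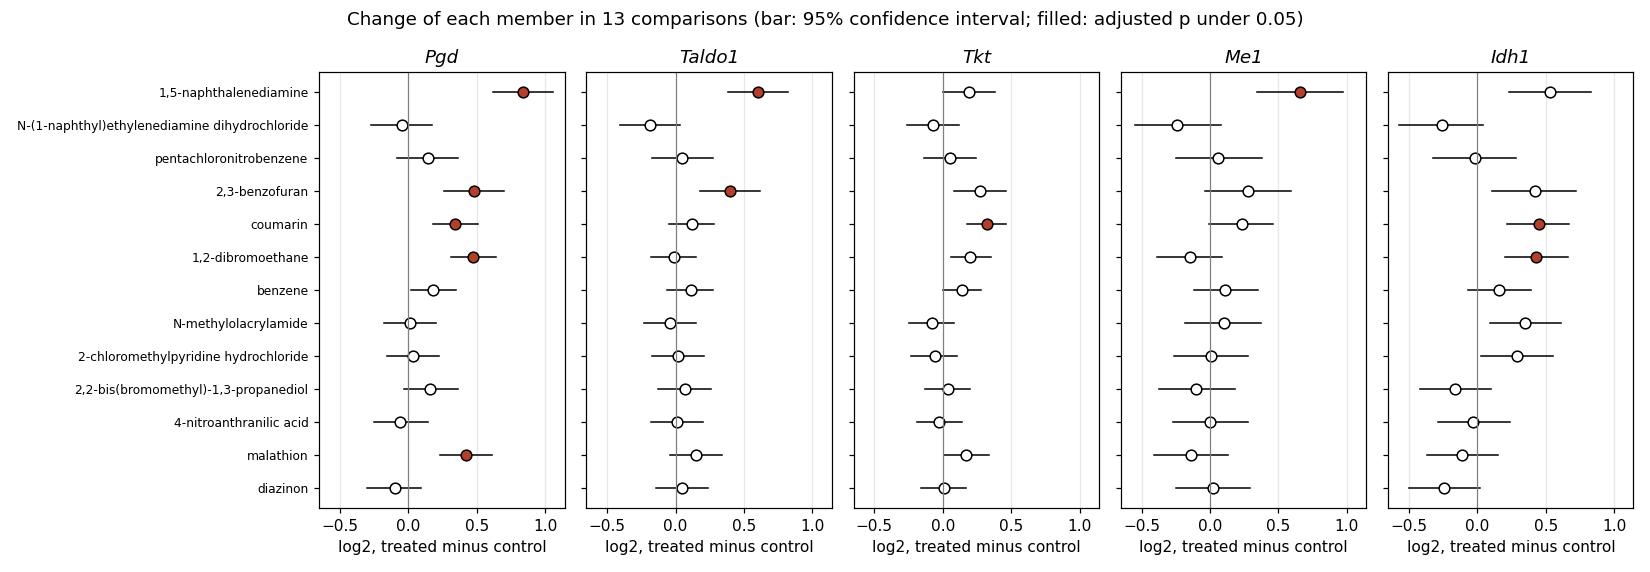
The difference between treated and control means of each member on the log2 scale in the 13 comparisons, with 95% confidence intervals. Filled points passed at an adjusted p under 0.05: 5 for Pgd, 2 for Taldo1, 1 for Tkt, 1 for Me1 and 2 for Idh1.

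A call with one chemical and none with another does not show that they differ, so 3 differences of changes were tested, each change being taken against its own controls. Pgd rose by 0.49 ± 0.14 more with 1,5-naphthalenediamine than with coumarin (interval 0.22 to 0.77), and Taldo1 by 0.49 ± 0.14 more (interval 0.21 to 0.76). Neither passed over all genes (limma adjusted p = 0.103 and 0.107), where 0.459% of genes were called. An unadjusted p under 0.05 in limma was found for 3 of 5 members and for 1119 of 14593 genes. For 1,5-naphthalenediamine against 2,3-benzofuran 0 members passed, with 0.0822% of genes called by limma. Here 1 member (Pgd, 0.36 ± 0.16) and 1237 of 14593 genes had an unadjusted p under 0.05. The third test set 2,3-benzofuran against coumarin, both fused to a benzene ring but given at unequal doses in different sets. In it 0 members passed, with 0.0206% of genes called by limma. An unadjusted p under 0.05 was found for 1 member (Taldo1, 0.28 ± 0.14) and for 1552 of 14593 genes.

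Whether the tumour class of a chemical goes with the members was tested over the 13 chemicals, each a single value per gene, 7 positive against 6 negative. All 5 members were higher on average among the positive chemicals, and 0 passed, where 0% of all genes passed with limma. The changes of Idh1 averaged 0.31 ± 0.24 (SD, n = 7) in the positive and -0.06 ± 0.20 (SD, n = 6) in the negative chemicals, a difference of 0.37 ± 0.11 (SE) with an unadjusted p of 0.00521 and an adjusted p of 0.746 in limma. For Pgd the averages were 0.36 ± 0.27 and 0.06 ± 0.19 (difference 0.29 ± 0.12, unadjusted p = 0.0317, adjusted p = 0.746 with limma). Malathion had the highest Pgd change of the negative chemicals, at 0.42, and N-methylolacrylamide the lowest of the positive ones, at 0.01.

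Class went largely with the route of dosing, since 5 of the 7 positive chemicals were given by gavage and 5 of the 6 negative ones in feed, and Idh1 also differed between the controls of these vehicles. For Idh1 the 5 positive gavage chemicals ranged from 0.16 to 0.45, and the 1 negative gavage chemical, 2-chloromethylpyridine hydrochloride, stood at 0.29, inside that range. Of the 2 positive feed chemicals 1,5-naphthalenediamine stood at 0.53 and 2,2-bis(bromomethyl)-1,3-propanediol at -0.16, the latter inside the range of the 5 negative feed chemicals (-0.26 to -0.02). Among the feed chemicals alone the class difference was 0.32 ± 0.16 for Idh1 (unadjusted p = 0.0854) and 0.43 ± 0.19 for Pgd (unadjusted p = 0.0512), with an adjusted p of 1 in limma for both.

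Around the members, a list of 22 other enzymes of the pathway and of NADPH supply had 18 genes above the filter. With 1,5-naphthalenediamine 0 of the 18 passed with limma, and their median difference was 0.09, against 0.60 over the 5 members. Among the listed enzymes that did not pass was Pgls, the lactonase between the dehydrogenases of the oxidative branch, at 0.15 ± 0.13. With 2,3-benzofuran 3 of 18 rose: Mthfd1, the cytosolic folate enzyme that also makes NADPH, by 0.91 ± 0.19, Pgls by 0.49 ± 0.13 and Rpia, the ribose phosphate isomerase, by 0.35 ± 0.10 (limma adjusted p = 0.00235, 0.0213 and 0.0309). Elsewhere 1 of 18 passed: mitochondrial Idh2 rose with coumarin (0.44 ± 0.09), the mitochondrial transhydrogenase Nnt fell with 1,2-dibromoethane (-0.33 ± 0.07), Mthfd1l rose with malathion (0.65 ± 0.15) and the mitochondrial NAD kinase Nadk2 rose with N-methylolacrylamide (0.72 ± 0.21). The last chemical called 17.9% of all genes. Its water controls differed from the feed controls of set 2 in 2 higher and 2 lower genes of the 18. Their part in the Nadk2 rise was not tested.

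The next list was of enzymes linked to the use of NADPH, with 23 genes tested. It was drawn broadly, and not every gene in it, Srxn1 among them, uses NADPH directly. In 1,5-naphthalenediamine lungs 9 rose and 1 fell, with a median of 0.14 over the list. Nqo1, the quinone reductase, went from 5.53 to 8.66 (3.14 ± 0.30), Cbr3, a carbonyl reductase, from 8.90 to 11.07 (2.17 ± 0.20), Srxn1, the sulfiredoxin, from 6.98 to 8.75 (1.77 ± 0.18) and Hmox1, haem oxygenase, from 7.26 to 8.81 (1.55 ± 0.27). Txnrd3, a thioredoxin reductase, fell by 0.61 ± 0.15. Glutathione reductase Gsr, which reduces glutathione at the cost of NADPH, stood at 9.62 against 8.72 (0.90 ± 0.15, limma adjusted p = 7.57e-05).

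Of the same 23 genes, 6 rose with 2,3-benzofuran, 6 with coumarin, 3 with 1,2-dibromoethane and 4 with malathion. Nqo1 and Cbr3 were among them in all 4, Nqo1 by 2.11 ± 0.30, 2.19 ± 0.23, 0.89 ± 0.23 and 1.25 ± 0.26 in that order. With malathion the largest of the 4 was Akr1b8, an aldo-keto reductase (1.38 ± 0.28). With N-methylolacrylamide, in which no member passed, 2 of the 23 rose, the NADPH oxidases Nox4 (1.90 ± 0.45) and Cybb (0.84 ± 0.26). That chemical called 1564 of 14593 genes as higher. Its water controls differed from the feed controls of set 2 in 1 higher and 2 lower genes of the 23. Their part in these rises was not tested.

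A list of further targets of NRF2 had 23 genes tested, of which some are also in the list on NADPH use. With 1,5-naphthalenediamine 18 rose (median 0.89), and 12 rose with 2,3-benzofuran (0.54). Another 3 chemicals followed: 12 rose with coumarin (0.43), 6 with 1,2-dibromoethane (0.22) and 5 with malathion (0.18). In the last, Gstm3 fell by 0.86 ± 0.23. Gpx2, the gastrointestinal glutathione peroxidase, rose in all 5 comparisons, by 2.46 ± 0.25, 1.68 ± 0.25, 1.50 ± 0.18, 0.99 ± 0.18 and 1.13 ± 0.21 in that order. Over all genes the median difference lay between -0.02 and 0.06 in these comparisons.

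Glycolysis shares glucose 6-phosphate with the pathway. Of 24 genes tested for glycolysis and glucose entry, at most 3 passed in any of these 5 comparisons. Ldha rose with 1,5-naphthalenediamine (0.33 ± 0.09), Ldhb with 2,3-benzofuran (0.48 ± 0.12) and Aldoc with coumarin (0.44 ± 0.13), and Pfkp fell with 1,2-dibromoethane (-0.27 ± 0.07). With malathion Pfkfb3, a maker of fructose 2,6-bisphosphate, rose by 0.76 ± 0.19, and Tigar, which degrades it, and Ldhb fell (-0.37 ± 0.10 and -0.48 ± 0.11). Me1 also serves lipid synthesis, and of 21 genes for fatty acids and cholesterol 0 passed with 1,5-naphthalenediamine (limma, median 0.04). In 2,3-benzofuran lungs Elovl6 and Thrsp, both lipogenic, fell by 1.08 ± 0.28 and 1.32 ± 0.38, with coumarin the desaturase Scd1 rose by 0.51 ± 0.12, and with 1,2-dibromoethane Acly and Fdps fell (-0.24 ± 0.06 and -0.47 ± 0.14).

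Ribose 5-phosphate feeds nucleotide synthesis, and of 16 genes in that list 0 passed with limma for 1,5-naphthalenediamine, 2,3-benzofuran or malathion. With coumarin Paics rose (0.29 ± 0.08) and Cad fell (-0.41 ± 0.12), and Cad also fell with 1,2-dibromoethane (-0.47 ± 0.12). N-methylolacrylamide raised 5 and lowered 2 of the 16, led by Adss (0.77 ± 0.21) and Prps2, a ribose phosphate pyrophosphokinase (0.76 ± 0.19). Over all 14593 genes it raised 1564 and lowered 1041. The water controls themselves differed from the feed controls of set 2 in this list, with 3 of 16 genes higher and 6 lower. The part of these controls in the calls with N-methylolacrylamide was not tested.

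**Figure D4:**
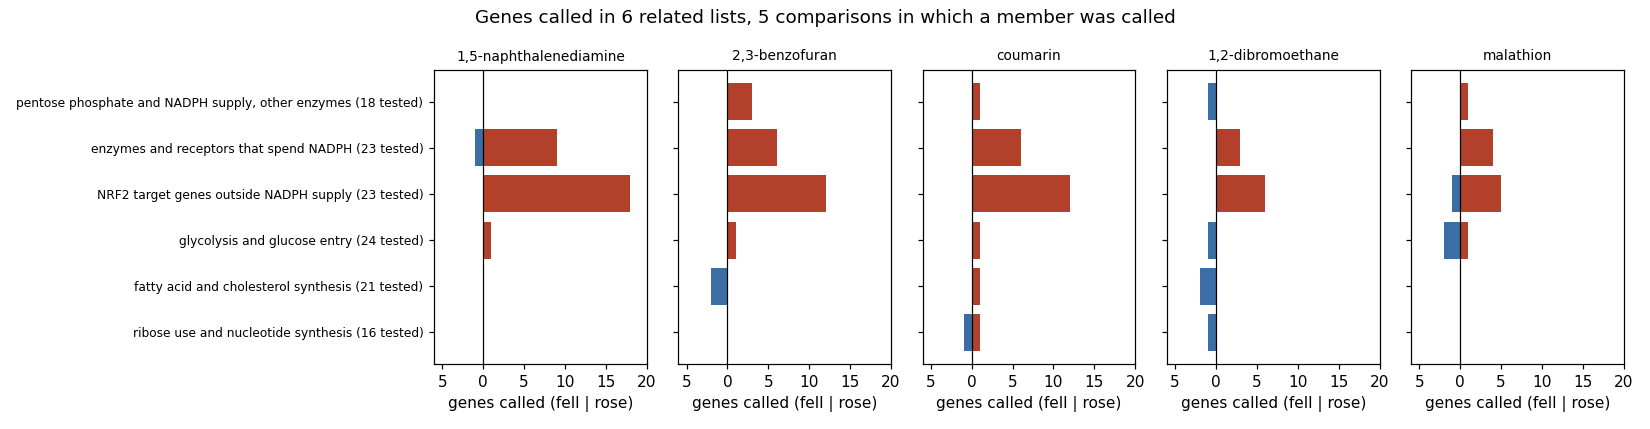
Numbers of genes called higher (red, right of 0) and lower (blue, left of 0) in 6 lists around the members, for the 5 chemicals with a called member. The list of NRF2 targets has 18, 12, 12, 6 and 5 genes that rose, and the list of other supply enzymes has 0, 3, 1, 0 and 1.

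Markers of airway cells moved in several of these comparisons. Of 14 ciliated cell markers 7 rose with each of 2,3-benzofuran, coumarin and 1,2-dibromoethane, and 0 passed for 1,5-naphthalenediamine against feed controls with limma. Their mean level ran from 8.96 to 9.64 with 2,3-benzofuran against 8.37 to 8.77 in controls. It ran from 8.89 to 9.29 with coumarin and from 8.77 to 9.29 with 1,2-dibromoethane, against 8.27 to 8.96 in 8 controls. Of 12 club cell markers 7 rose with coumarin, 4 with 1,2-dibromoethane and 0 with 2,3-benzofuran, and 1 fell with 1,5-naphthalenediamine. With malathion 0 of either list rose: 2 of 14 ciliated markers fell (median -0.21, mean level 8.53 to 9.01 against 8.73 to 9.30 in feed controls), and 3 of 12 club cell markers fell (median -0.32, 10.50 to 10.99 against 10.47 to 11.62). Against the same feed controls the ciliated median was also negative with 4-nitroanthranilic acid (-0.19), 2,2-bis(bromomethyl)-1,3-propanediol (-0.27) and diazinon (-0.20), with 0 markers called.

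In the direct comparison of the naphthalenes 4 ciliated markers were higher with 1,5-naphthalenediamine, whose lungs had a mean marker level of 8.91 to 8.95 against 8.32 to 8.38. Of 10 B and plasma cell markers 3 were higher in that comparison and in the one with feed controls, where the mean level was 8.07 to 8.65 against 6.82 to 7.43. The median difference of the 10 from feed controls was 0.25, with single markers between -0.05 and 3.84. Of 12 endothelial markers 4 fell with coumarin, of 12 fibroblast markers 4 fell with 2,3-benzofuran and of 11 alveolar type II markers 5 fell with 1,2-dibromoethane. With coumarin 4 of 12 T and NK cell markers fell, and with 1,2-dibromoethane 3 of 15 alveolar macrophage markers and 2 of 12 fibroblast markers fell. With malathion 2 of 12 T and NK cell markers and 1 of 10 B and plasma cell markers rose. In the other pairings of a marker list with 1 of the 5 chemicals that had a called member, at most 2 genes passed. The part of these cell types in the members' values was not tested.

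Within groups the members did not form one block. After the group means were removed, the correlation over 70 arrays was 0.47 for Taldo1 with Tkt, 0.33 for Me1 with Idh1, 0.31 for Pgd with Idh1 and 0.28 for Pgd with Tkt. The other 6 pairs lay between -0.24 and 0.10. Me1 moved within groups with the mean level of club markers (0.61), of adipocyte markers (0.55) and of ciliated markers (0.54), and against the 3′ minus 5′ difference (-0.45). Idh1 moved with ciliated markers (0.49) and alveolar macrophage markers (0.48) and against endothelial markers (-0.60). Taldo1 moved with neutrophil markers (0.50) and erythroid markers (0.48) and against alveolar type I markers (-0.49), and for Pgd no list passed 0.31 in size. These are descriptions over arrays of which many share a set.

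Over the changes with the 13 chemicals the members lay closer together, from 0.45 for Tkt with Me1 to 0.87 for Taldo1 with Me1. The 13 values share controls and are not independent. The mean change over the 5 members was 0.56 with 1,5-naphthalenediamine, 0.37 with 2,3-benzofuran, 0.29 with coumarin, 0.19 with 1,2-dibromoethane and 0.14 with benzene, and it lay between -0.16 and 0.10 with the other 8. The 8 genes most like that mean, by Pearson correlation over the 13 chemicals among all genes tested, were Gsta2 (0.955), Abcc1 (0.942), Cfap52 (0.940), Ces1g (0.939), Ghrl (0.935), Nme7 (0.927), Cfap45 (0.920) and Acox2 (0.919). Gsta2 is a glutathione transferase and Abcc1 an export pump for glutathione conjugates, while Cfap52 and Cfap45 are proteins of cilia.

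Each member alone had another nearest gene. Pgd was most like Gpx2 (0.946), Taldo1 most like Gsr (0.937), Tkt most like Rsph9, a radial spoke protein of cilia (0.966), Me1 most like Marco, a scavenger receptor of macrophages (0.908), and Idh1 most like Dsg2, a desmosomal cadherin (0.966), over the same 13 changes.

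Other probe sets of the members were fitted as well, after the data had been seen. For Pgd 3 others followed the first over the 13 changes (0.94 to 0.99), and 1 of them (1423706_a_at) did not pass with coumarin (0.25, limma adjusted p = 0.193) or 1,2-dibromoethane (0.30, limma adjusted p = 0.0815). A second probe set of Me1 (1416632_at) passed with 1,5-naphthalenediamine too (0.51 ± 0.13, limma adjusted p = 0.024).

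For Idh1 the second probe set (1419821_s_at) disagreed in 1,2-dibromoethane, where it stood at 0.07 ± 0.15 (limma adjusted p = 0.85), and did not pass with coumarin (0.42 ± 0.15, limma adjusted p = 0.114). For Tkt the next probe set (1451015_at) correlated at 0.76 and did not pass with coumarin (0.32, limma adjusted p = 0.0665). Taldo1 had a single probe set. The chosen probe sets of Pgd and Tkt have names ending in x_at, which marks probes that can also bind other sequences. The Idh1 probe sets have names ending in s_at, and whether their probes bind other transcripts was not tested. The Idh1 calls with coumarin and 1,2-dibromoethane, the Tkt call with coumarin and, for 1 probe set, the Pgd calls with coumarin and 1,2-dibromoethane were thus not shared by every probe set. In the direct comparison of the naphthalenes the second Idh1 probe set passed (0.94 ± 0.20, limma adjusted p = 0.00226), and all 4 Pgd probe sets passed with 1,5-naphthalenediamine.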

How the data were processed

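The deposited values are log2 probe set signals, read as log2 from the values themselves (2.47 to 14.5, array medians 5.41 to 5.52). The authors' summarisation and normalisation of them are not given in the sources here. Gene symbols came from the table given for this array, updated through RefSeq's genes on GRCm38.p6. Of 45101 probe sets, 34945 had 1 symbol and entered, and genes were kept where the mean of the best probe set lay above the 30th percentile of all probe sets (4.25), which left 14593. One model with 18 group means was fitted to 70 arrays with limma 3.58.1 in R 4.3.3 (lmFit, contrasts.fit, eBayes), and p-values were adjusted by Benjamini-Hochberg over all genes within each comparison, with a threshold of 0.05. A ± after a difference is its standard error, and confidence intervals are at 95%. The number of arrays limits the precision. Each mouse was taken as a replicate, and the labels do not say how mice were allotted to cages or days. Tumour class was fitted on 13 columns, 1 per chemical. The rule for named genes took the members in every comparison, up to 4 called genes per list and direction, and the 8 genes most like the members' mean change. Members, lists and tests were chosen with earlier results of these data known. The fit was tested on simulated data. Promoters came from RefSeq, and figures were drawn with matplotlib 3.10.9. The alternatives tried were other filters, normalization, weights, variance models, controls, arrays and probe sets.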

Additional observations from a re-analysis of the deposited data

Results flagged for a closer look

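In 60 checks of a member's values within groups of 4 to 10, 6 values stood apart from the rest of their group, where chance alone gives about 5%. For Pgd these were lung 2-2 with 2,2-bis(bromomethyl)-1,3-propanediol (9.85, the next at 10.27), lung 2-119 with 2-chloromethylpyridine hydrochloride (9.91, the next at 10.08) and feed control 2-43 (10.15, the next at 9.99). For Idh1 they were the same lung 2-119 (9.85, the next at 9.99) and lung 2-106 with N-methylolacrylamide (10.17, the next at 9.98). For Tkt it was lung 2-21 with diazinon (11.85, the next at 11.59). None of them lay in a group with a called member among the treated lungs, and feed control 2-43 is 1 of the 4 controls for malathion.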

How the results depend on the processing

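No member's change reversed its sign with a call under any alternative. Over single members and comparisons 1586 alternative values kept their side of the threshold, 29 newly passed and 30 no longer passed. The count of members called stayed within 1.5 times for 1,5-naphthalenediamine (2 to 3 with 1 lung left out) and for the direct comparison of the naphthalenes (4 with any lung left out). Only the arrays of the 2 groups gave 0 members for 2,3-benzofuran, coumarin, 1,2-dibromoethane and malathion, where the spread rests on fewer arrays. Pooling the controls of both sets gave 1 member for N-(1-naphthyl)ethylenediamine dihydrochloride, 1 for 2,3-benzofuran, 1 for 2,2-bis(bromomethyl)-1,3-propanediol and 3 for malathion, and Taldo1 with 1,5-naphthalenediamine stood at 0.34 (adjusted p = 0.106 with limma). Array weights gave 1 member for N-(1-naphthyl)ethylenediamine dihydrochloride, N-methylolacrylamide, 2-chloromethylpyridine hydrochloride, 2,2-bis(bromomethyl)-1,3-propanediol and the difference of 1,5-naphthalenediamine from coumarin, and 2 for malathion. The mean over all probe sets gave 1 for 1,2-dibromoethane, N-methylolacrylamide and that same difference. For N-methylolacrylamide the filter at the 50th percentile and quantile normalization over again also gave 1, and for 1,2-dibromoethane the 3′ minus 5′ covariate, chosen after seeing the data, gave 1. With 1 lung left out the counts ran from 0 to 3 for 2,3-benzofuran, 1 to 3 for coumarin, 1 to 3 for 1,2-dibromoethane, 0 to 1 for malathion and 0 to 1 for N-methylolacrylamide. The cause of these shifts was not tested. Idh1 with 1,5-naphthalenediamine passed under 5 alternatives, with an adjusted p as low as 0.000575 with array weights in limma. No paired analysis was possible because the groups compared have no animal number in common.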
